A study of Homo sapiens with 9 samples.

Results

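The genes described here are 8 transcription factors known to drive epithelial-mesenchymal transition (EMT): SNAI1, SNAI2 and SNAI3 of the SNAIL family, TWIST1 and TWIST2 of the TWIST family, ZEB1 and ZEB2 of the ZEB family, and PRRX1. They were taken by gene name from the 60642 gene names of the deposited count and TPM tables. All 8 were among the 18574 genes that passed the filter on low counts. SNAI2 was chosen from its measured rise in EMX1-FL cells, so its levels and fold changes are a description and carry no test, and it is left out of the counts of members that passed a threshold. The other 7 were chosen by family.

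The cells were SNU-398, a human hepatocellular carcinoma (HCC) line, in 3 groups of 3 RNA-seq libraries. One group stably overexpressed EMX1-FL and another EMX1-X1, the full-length form and an alternative form of the homeobox factor EMX1, from lentivirus. The third was the overexpression vector control. All 3 groups had been selected with puromycin and came from 1 parental line, and whether a group was a clone or a pool of transduced cells is not given in the sources used here. Nothing states that the 3 libraries of a group came from separate cultures, so the p-values measure only the spread between these libraries.

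During EMT, epithelial cells lose their junctions and polarity and take up a motile, mesenchymal form. The SNAIL and ZEB factors are zinc finger repressors that bind E-box sequences in epithelial genes such as CDH1 (E-cadherin). The TWIST factors are basic helix-loop-helix proteins that act with E-protein partners, and PRRX1 is a homeobox factor of mesenchymal cells. In liver cancer these factors are studied for their part in invasion and metastasis.

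Between 21562703 and 25197970 read pairs were counted per library. EMX1 itself ranged from 218 to 313 counts in the vector control, from 3145 to 5660 in the EMX1-FL libraries and from 3479 to 7133 in the EMX1-X1 libraries. The libraries also fell apart along a first principal component of the log2 CPM (counts per 1e+06 counted pairs) of all genes tested, with 39.6% of the variance, into 5 on one side (EMX1-X1 1, vector control 1 and 2, and EMX1-FL 2 and 3) and 4 on the other (EMX1-X1 2 and 3, vector control 3 and EMX1-FL 1). These are called side 1 and side 2, and each group has libraries on both. Hepatocyte markers were nearly absent for a liver-derived line: AFP, TTR, FGB and KRT18 were at 0 in all libraries, and the summed TPM of 11 such markers was 0.759 to 1.03 in the vector control, 1.91 to 3.40 in EMX1-FL and 1.14 to 3.08 in EMX1-X1. A list of 11 leukocyte, endothelial and fibroblast markers summed to 462 to 810, 511 to 972 and 568 to 887 TPM, nearly all from LUM, with CD68 and CDH5 at 0 in all libraries. For CD68, 85.6% of the exon bases are shared with AC016876.2 and AC016876.3, so its 0 need not mean absence. None of the 4 markers of this list that could be tested passed the threshold used here. The threshold was an unadjusted p under 0.05 together with a log2 fold change of 1 or more in either direction. Of all genes tested, 2.42% passed in EMX1-FL and 2.5% in EMX1-X1 against the vector control, and 1.42% between them. DCN was at -0.61 (SE 0.18) in EMX1-FL and -0.46 (SE 0.18) in EMX1-X1 against the vector control. The part of these markers in the results was not tested. In bulk RNA, more cells that express a gene and more RNA per cell cannot be told apart.

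SNAI2 is the member that was chosen for its rise in EMX1-FL, so the separation of its groups partly follows from that choice. The gene lies at chr8:48917598-48921740 on the minus strand of GRCh38, shares no exon bases with another gene, and encodes SLUG, a repressor of CDH1 that also marks migrating neural crest cells. It had 85, 73 and 64 counts in the vector control libraries, 273, 307 and 289 in the EMX1-FL libraries and 219, 169 and 164 in the EMX1-X1 libraries. The 3 groups did not overlap, and every EMX1-X1 library lay between the vector control and the EMX1-FL libraries.

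Per length, the level of SNAI2 was 3.40 ± 0.751 TPM (SD, n = 3) in the vector control, 14.7 ± 1.12 in EMX1-FL and 8.71 ± 1.57 in EMX1-X1. On the log2 scale, SNAI2 was above the vector control by 2.02 (SE 0.22) in EMX1-FL, a fold of 4.05, and 1.27 (SE 0.22) in EMX1-X1, a fold of 2.40. EMX1-FL was above EMX1-X1 by 0.75 (SE 0.21) on the log2 scale, a fold of 1.69. By side of the first component, the log2 difference of EMX1-FL from the vector control was 1.92 on side 1 and 2.16 on side 2. That of EMX1-X1 was 1.40 and 1.34, and that of EMX1-FL from EMX1-X1 was 0.52 and 0.82. Each side held 1 or 2 libraries of a group. SNAI2 was chosen for its rise over these same libraries, so the values by side are description and no separate support.

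**Figure D1:**
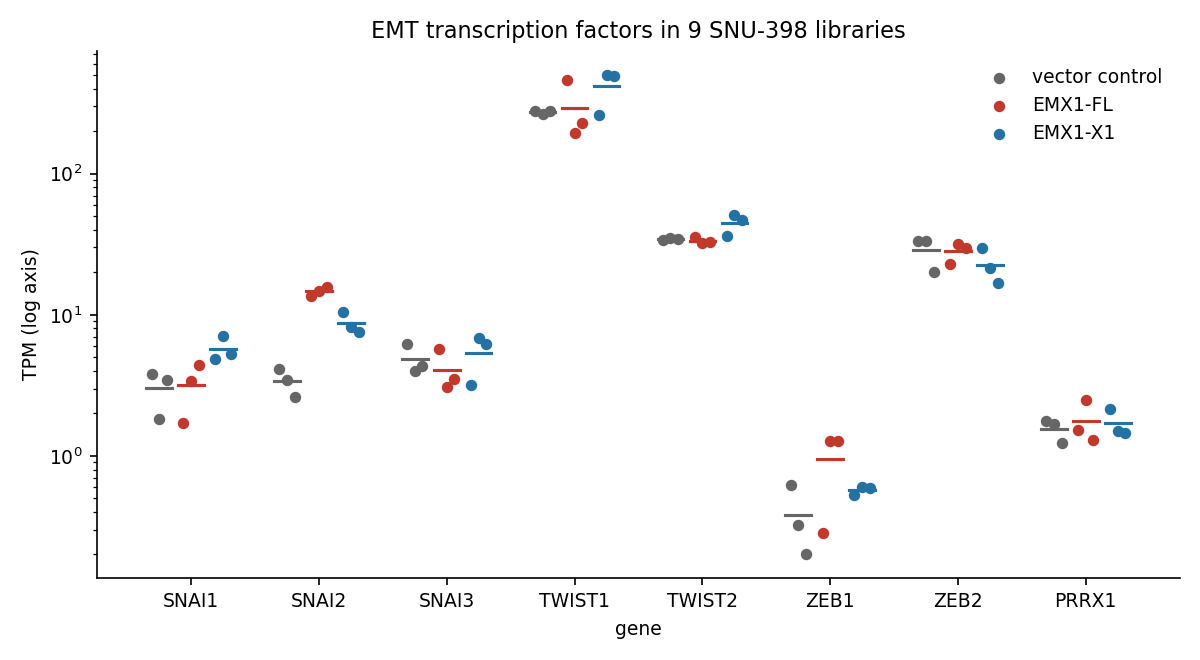
TPM of the 8 EMT transcription factors on a log axis, with 1 point for each library and a short line for the mean of each group of 3. SNAI2 lies at 2.62 to 4.12 TPM in the vector control, 7.49 to 10.5 in EMX1-X1 and 13.5 to 15.8 in EMX1-FL, while TWIST1 stands above all other members in every library.

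SNAI1 and SNAI3, the relatives of SNAI2, did not share its pattern. SNAI1, which encodes SNAIL, the founding E-cadherin repressor of the family, lies at chr20:49982980-49988886 on the plus strand. It had 41, 20 and 44 counts in the vector control, 18, 37 and 42 with EMX1-FL and 53, 76 and 60 with EMX1-X1. The EMX1-FL libraries overlapped the vector control, and the EMX1-X1 libraries lay above all libraries of both other groups. The log2 fold change of SNAI1 was -0.05 (SE 0.40) in EMX1-FL and 0.81 (SE 0.39) in EMX1-X1 against the vector control, and -0.86 (SE 0.39) in EMX1-FL against EMX1-X1. None of these 3 values passed the threshold. The adjusted p-values of edgeR's quasi-likelihood test were 0.999, 0.62 and 0.611.

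SNAI3, a less studied member of the family, lies at chr16:88677688-88686507 on the minus strand, and the antisense gene SNAI3-AS1 covers 10.2% of its exon bases. Since the counting did not use strand, reads of the 2 genes cannot be told apart in the shared bases. Its counts were 68, 45 and 56 in the vector control, 61, 34 and 34 with EMX1-FL and 35, 75 and 72 with EMX1-X1, and all groups overlapped. The log2 fold changes were -0.33 (SE 0.37) in EMX1-FL and 0.06 (SE 0.36) in EMX1-X1, with adjusted p-values of 0.997 and 0.965 from edgeR.

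Within the SNAIL family, the ratio of SNAI2 to SNAI1 was highest in the EMX1-FL libraries. The TPM of SNAI2 was 0.756 to 1.90 times that of SNAI1 in the vector control libraries, 3.58 to 7.88 times in EMX1-FL and 1.16 to 2.15 times in EMX1-X1. The EMX1-FL ratios lay above all others, and those of the other groups overlapped. In the vector control SNAI2 had rank 5 by TPM among the 8 members, and its range overlapped those of SNAI3 and SNAI1 beside it. In both overexpression groups it had rank 4, apart from ZEB2 above it and the other SNAIL genes below. Because SNAI2 was chosen for its rise in EMX1-FL over these same libraries, its ratios and ranks are description and partly follow from that choice.

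TWIST1 was by far the most abundant member and did not separate the groups. It lies at chr7:19020991-19117636 on the minus strand, with 7.06% of its exon bases shared with AC003986.2, and encodes a factor of mesoderm and neural crest that can activate mesenchymal genes. Its counts were 3494, 3412 and 4165 in the vector control, 5627, 2485 and 2541 with EMX1-FL and 3308, 6347 and 6514 with EMX1-X1. EMX1-FL 1 and EMX1-X1 2 and 3 stood high and the other 2 EMX1-FL libraries stood below every vector control library, so the groups overlapped.

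The mean level of TWIST1 was 275 ± 7.69 TPM (SD, n = 3) in the vector control, 294 ± 144 in EMX1-FL and 417 ± 137 in EMX1-X1. It made up 68.6% to 85.3% of the summed TPM of the 8 members. Against the vector control its log2 fold change was 0.0046 (SE 0.33) in EMX1-FL and 0.50 (SE 0.33) in EMX1-X1, with edgeR's adjusted p-values of 1 and 0.682, and EMX1-FL against EMX1-X1 it was -0.49 (SE 0.33, adjusted p = 0.618 from edgeR). Its direction in EMX1-FL was not stable, since 12 of 19 alternative settings gave a value below 0.

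TWIST1 levels did not overlap between the sides of the first component. The sides were drawn from the levels of all genes tested in these same libraries, so gaps of this kind are partly built in. The share of all genes with such a gap is not given here, so it is not shown to be a trait of TWIST1 or ZEB2. The 4 libraries of side 2 had 171.6 to 263.8 CPM of TWIST1 and the 5 of side 1 had 105 to 149.6. The gap differed by group: side 2 was above side 1 by 0.20 on the log2 scale within the vector control (171.6 against 149.3 CPM), by 1.17 within EMX1-FL and by 0.94 within EMX1-X1. On side 1 EMX1-FL differed from the vector control by -0.43 and EMX1-X1 by -0.12, and on side 2 by 0.54 and 0.62. With 1 or 2 libraries of a group on a side, whether the gap depends on the group was not tested. EMX1 itself differed by side in the overexpression groups. It was at 251 CPM in EMX1-FL 1 (side 2) and 135 and 145 in EMX1-FL 2 and 3 (side 1). In EMX1-X1 2 and 3 (side 2) it was at 294 and 288 CPM, and in EMX1-X1 1 (side 1) at 145. The part of the EMX1 level in the gap of TWIST1 was not tested. The longest transcript of TWIST1 has a GC content of 57.2%, above the upper quartile of the genes tested (56.1%), and the 3 genes whose log2 CPM was most like that of TWIST1 over the 9 libraries, DPP7 (Pearson r = 0.998), ZNF598 (0.997) and FAM20C (0.997), have 66.5%, 65.6% and 64.6%. The part of GC content in these levels was not tested.

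TWIST2, a close relative of TWIST1 found in dermis and other mesenchyme, lies at chr2:238848032-238910534 on the plus strand. Its counts were 396, 418 and 479 in the vector control, 407, 385 and 341 with EMX1-FL and 432, 598 and 584 with EMX1-X1. EMX1-X1 2 and 3 stood above all other libraries, but EMX1-X1 1 fell within the range of the vector control in counts and CPM. Per length, where EMX1-X1 1 was at 36.3 TPM and the vector control libraries at 33.7 to 34.8, the level of TWIST2 was 34.3 ± 0.576, 33.5 ± 1.72 and 44.6 ± 7.45 TPM (SD, n = 3). Set against EMX1-X1, EMX1-FL was at -0.41 (SE 0.18) on the log2 scale, with an unadjusted p of 0.0474 and an adjusted p of 0.611 from edgeR, and it did not reach the fold threshold.

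Of the 7 members besides SNAI2, ZEB1 alone passed the threshold, and it did so in 1 comparison. ZEB1 represses CDH1 and the miR-200 family. It lies at chr10:31318495-31529814 on the plus strand, and its start overlaps the antisense gene ZEB1-AS1 (chr10:31206278-31320447, minus strand), with 4.58% of the ZEB1 exon bases shared. Its counts were low, 34, 18 and 13 in the vector control, 15, 70 and 62 with EMX1-FL and 29, 33 and 34 with EMX1-X1. EMX1-FL 2 and 3 stood above all other libraries, while EMX1-FL 1 was the second lowest of all 9 and lay within the vector control range.

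The log2 fold change of ZEB1 in EMX1-FL was 1.22 (SE 0.53), a fold of 2.33, with an unadjusted p of 0.0413 and an adjusted p of 0.837 from edgeR's quasi-likelihood test. The exact two-sided permutation test gave p = 0.3, where 0.1 is the smallest that 3 libraries against 3 can give. The difference was 1.37 on side 1 of the first component, with 2 libraries a group, and 0.27 on side 2, with 1 library a group. It missed the threshold without vector control 2 (1.11) or 3 (0.93), without EMX1-FL 2 (0.91) or 3 (0.97), and, at 1.22 in both, without EMX1-X1 2 or 3. In EMX1-X1 it was 0.51 (SE 0.54), with an adjusted p of 0.788 from edgeR.

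ZEB1-AS1 had 47, 22 and 21 counts in the vector control, 56, 79 and 123 with EMX1-FL and 56, 80 and 58 with EMX1-X1. Both overexpression groups lay above the vector control with no overlap. Its log2 fold change was 1.58 (SE 0.41) in EMX1-FL and 1.06 (SE 0.41) in EMX1-X1, past the threshold in both, with edgeR's adjusted p-values of 0.276 and 0.572. The ratio of the pair was not fixed: in EMX1-FL 1, ZEB1-AS1 had 56 counts where ZEB1 had 15.

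Since ZEB1 and ZEB1-AS1 are read from opposite strands of 1 locus and both passed the threshold in EMX1-FL, the 250 bases before the most upstream ZEB1 start are shown, from RefSeq on GRCh38.p14 (chr10:31318167-31318416, plus strand). Capitals mark the E-box CACCTG or its reverse complement CAGGTG, the sequence that SNAIL and ZEB zinc fingers are known to bind.
ZEB1 upstream: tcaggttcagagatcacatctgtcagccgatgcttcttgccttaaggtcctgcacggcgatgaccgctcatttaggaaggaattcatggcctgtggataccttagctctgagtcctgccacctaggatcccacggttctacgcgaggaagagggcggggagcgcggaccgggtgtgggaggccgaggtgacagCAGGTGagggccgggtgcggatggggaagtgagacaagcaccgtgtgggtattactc
The window holds 1 such E-box. RefSeq windows were at hand for 4 of the 8 members (PRRX1, TWIST2, ZEB1 and ZEB2), 10 windows in all of which 7 belong to starts of ZEB1. The E-box was present in 2 of the 10, both of ZEB1, against 17.5% of the 35116 windows of all genes, searched on both strands. A match in these letters is a description of the sequence and no measure of binding.

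ZEB2, the other ZEB repressor, was more abundant than ZEB1 in every library, by 23.1 to 103 times in TPM. It lies at chr2:144364364-144521057 on the minus strand, and ZEB2-AS1, AC009951.2 and AC009951.3 cover 5.23% of its exon bases. Its counts were 5199, 5333 and 3718 in the vector control, 3503, 5066 and 4110 with EMX1-FL and 4744, 3355 and 2770 with EMX1-X1. All groups overlapped, with vector control 1 and 2 highest and EMX1-X1 3 lowest.

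The log2 fold change of ZEB2 was -0.12 (SE 0.24) in EMX1-FL and -0.44 (SE 0.24) in EMX1-X1, with adjusted p-values of 0.997 and 0.641 from edgeR. As for TWIST1, the sides of the first component separated the libraries, but in the opposite direction: side 1 had 189.8 to 232.7 CPM of ZEB2 and side 2 had 112 to 155.4. Within the sides the difference of EMX1-X1 from the vector control was -0.21 and -0.29. The longest ZEB2 transcript has a GC content of 39.1%, below the lower quartile of the genes tested (42.0%). The other 6 members overlapped between the sides. On the log2 scale, side 2 differed from side 1 by 0.59 for SNAI3 (65.4% GC), 0.19 for SNAI1 (58.2%) and 0.33 for TWIST2 (57.0%). The difference was -0.79 for ZEB1 (38.5%), -0.31 for PRRX1 (41.0%) and -0.19 for SNAI2 (41.4%), beside 0.84 for TWIST1 and -0.60 for ZEB2. The part of GC content in these differences was not tested.

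**Figure D2:**
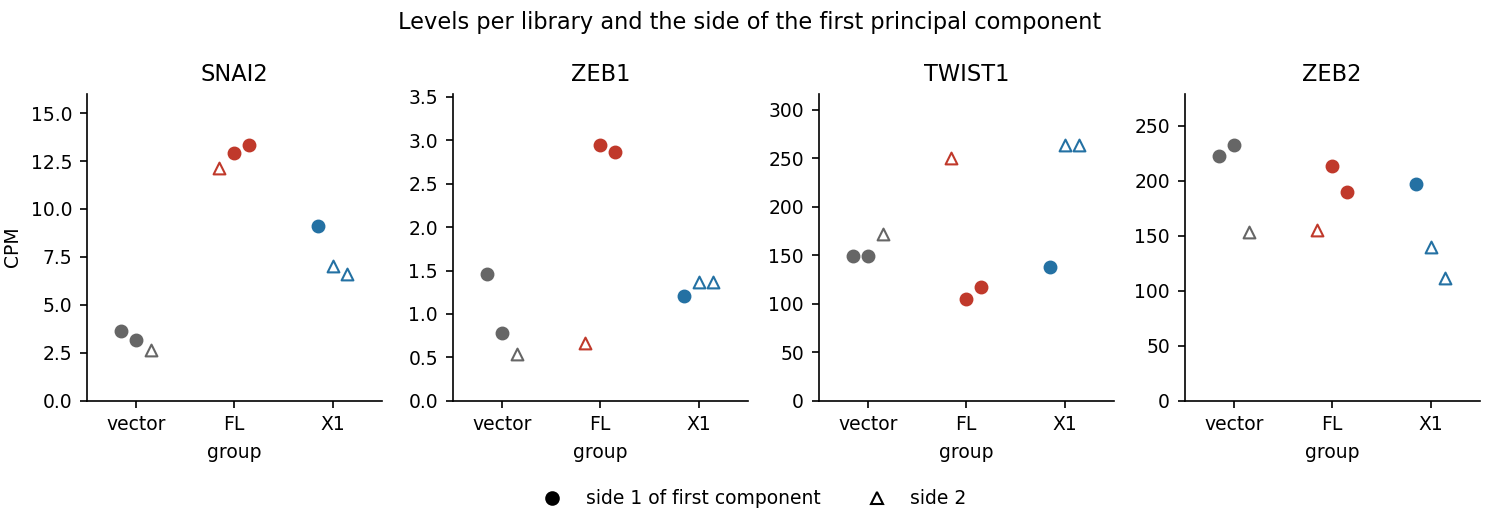
CPM of SNAI2, ZEB1, TWIST1 and ZEB2 in each library, by group, with filled circles for the 5 libraries on side 1 of the first principal component and open triangles for the 4 on side 2. SNAI2 separates by group, TWIST1 is at 171.6 CPM or more only on side 2, ZEB2 is at 189.8 CPM or more only on side 1, and ZEB1 is highest in EMX1-FL 2 and 3.

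PRRX1 lies at chr1:170662728-170739421 on the plus strand. It had 91, 89 and 76 counts in the vector control, 77, 132 and 60 with EMX1-FL and 113, 78 and 80 with EMX1-X1. The EMX1-FL group held both the highest and the lowest library, and the groups overlapped. Its level was 1.56 ± 0.279 TPM (SD, n = 3) in the vector control, 1.78 ± 0.641 in EMX1-FL and 1.70 ± 0.390 in EMX1-X1, and the log2 fold changes were 0.11 (SE 0.30) and 0.03 (SE 0.30).

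Counted over the 7 members besides SNAI2, 1 passed the threshold in EMX1-FL against the vector control, where 2.42% of all genes tested did so. None passed in EMX1-X1 against the vector control (2.5% of all genes) or in EMX1-FL against EMX1-X1 (1.42%). When the adjusted p of edgeR was held under 0.05 and the fold limit kept, none of the 7 passed, and 0.07%, 0.00538% and 0% of all genes did in the 3 comparisons. At an unadjusted p under 0.05 without a fold threshold, 1 of the 7 (ZEB1) passed in EMX1-FL against the vector control, none in EMX1-X1 against the vector control and 1 (TWIST2) in EMX1-FL against EMX1-X1, where 5.8%, 8.11% and 7.63% of all genes did. At the fold threshold in EMX1-FL against the vector control, DESeq2 called 1 of the 7 and 2.68% of all genes, and limma on log2(TPM + 1) called 0 of the 7 and 0.765% of all genes. The pseudocount of 1 shrinks the fold changes of genes as low as ZEB1.

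Groups without overlap were found for 0 of the 7 in EMX1-FL against the vector control (10.5% of all genes), for 1, SNAI1, in EMX1-X1 against the vector control (14.7%) and for 1, SNAI1, in EMX1-FL against EMX1-X1 (8.38%). The median log2 fold change of the 7 was -0.05, 0.27 and -0.39 in the 3 comparisons, beside 0.045, 0.0098 and 0.021 over all genes tested. The 3 comparisons share libraries with each other.

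**Figure D3:**
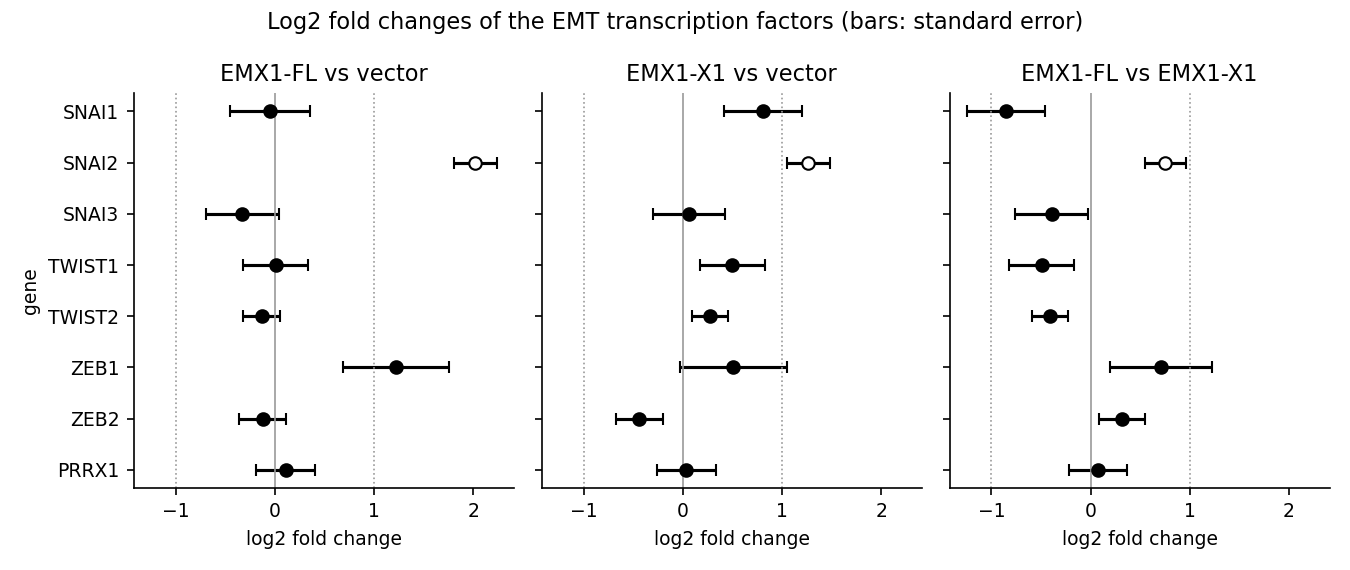
Log2 fold change of each member in the 3 comparisons, with bars of 1 standard error, dotted lines at a log2 fold change of 1 in each direction, and an open circle for SNAI2, which was chosen by its rise. SNAI2 stands at 2.02, 1.27 and 0.75, and among the others ZEB1 in EMX1-FL against the vector control lies past a dotted line.

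In order of TPM, the members ran TWIST1, TWIST2, ZEB2, SNAI3, SNAI2, SNAI1, PRRX1 and ZEB1 in the vector control, and ZEB1 was lowest in all 3 groups at 0.384 ± 0.218, 0.945 ± 0.574 and 0.573 ± 0.0413 TPM (SD, n = 3). The ranges of TWIST1, TWIST2 and ZEB2 did not overlap each other in any group, and those of SNAI1 and SNAI3 overlapped in both overexpression groups but not in the vector control.

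The genes whose log2 CPM was most like that of SNAI2 over the 9 libraries were COL12A1 (Pearson r = 0.990), GREM1 (0.983), TDO2 (0.981), PIEZO2 (0.976), PDLIM3 (0.975), SLC1A6 (0.971), SAMD4A (0.965), PHYHIPL (0.961), CD24 (0.959) and SVIL (0.958). COL12A1, a fibril-associated collagen, had 74.1 ± 4.82 CPM (SD, n = 3) in the vector control, 157 ± 6.03 in EMX1-FL and 121 ± 20.8 in EMX1-X1. GREM1, a secreted BMP antagonist, had 19.7 ± 4.10, 60.8 ± 8.87 and 38.6 ± 6.31 CPM, and CD24, a cell surface glycoprotein, had 17.5 ± 1.23, 46.9 ± 8.91 and 34.0 ± 5.68 CPM.

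Each of the 10 had its lowest mean in the vector control, its highest in EMX1-FL and EMX1-X1 between them. They were picked for their likeness over the same libraries and group differences, so the order is part of the choice.

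The other members had other closest genes. For SNAI1 these were AL356356.2 (r = 0.937), STX3 (0.936) and TDRKH-AS1 (0.934), for SNAI3 ANGPTL4 (0.961), FOXD3 (0.956) and AC002470.1 (0.952), and for TWIST2 GAREM2 (0.978), FAM234A (0.975) and SEMA3F (0.973). For ZEB1 they were AL049552.1 (0.965), AC006213.6 (0.953) and TMEM170B (0.953), for ZEB2 Z83843.1 (0.987), CDC42BPA (0.985) and POLA1 (0.981), and for PRRX1 ZNF75A (0.929), ZNF480 (0.905) and TDH (0.893). Among the members themselves, the correlation of SNAI2 with SNAI1 was 0.047, with ZEB1 0.61 and with ZEB2 -0.070, while that of TWIST1 was 0.84 with TWIST2 and -0.82 with ZEB2, over 9 libraries that share the groups and the sides.

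Around the members, 11 lists of genes of the EMT pathway were described, with 159 genes of which 126 could be tested. In EMX1-FL against the vector control 8 of the 126 passed the threshold, all higher, and in EMX1-X1 against the vector control 9 passed, 8 higher and 1 lower. In EMX1-FL against EMX1-X1, 1 was higher and 1 lower. These counts are 6.35%, 7.14% and 1.59% of the 126, beside 2.42%, 2.5% and 1.42% of all genes tested. The lists were chosen with earlier results of these data known, so the gap between these shares is no test of the lists. Calls leaned upward over all genes too, with 379 higher and 71 lower in EMX1-FL, 363 higher and 101 lower in EMX1-X1, and 139 higher and 124 lower between them.

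Upstream of the EMT factors stand receptors and signalling proteins, and 3 of 19 tested passed in EMX1-FL and 1 of 19 in EMX1-X1, where 2.42% and 2.5% of all genes did. All of these were higher, the direction of most calls over all genes. TGFBR2, the type II receptor for TGF-beta, a classical inducer of SNAIL genes, had 63, 49 and 55 counts in the vector control, 138, 208 and 196 with EMX1-FL and 202, 115 and 156 with EMX1-X1, with no overlap between the vector control and either group. Its log2 fold change was 1.75 (SE 0.27) in EMX1-FL, with an adjusted p of 0.0497 from edgeR, and 1.45 (SE 0.27) in EMX1-X1, with an adjusted p of 0.233. The difference between the overexpression groups was 0.30 (SE 0.26).

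MET, the receptor for hepatocyte growth factor, rose in EMX1-FL by a log2 fold change of 1.27 (SE 0.39, edgeR's adjusted p = 0.472). Its counts were low, 31, 23 and 27 in the vector control, 46, 79 and 64 with EMX1-FL and 59, 27 and 24 with EMX1-X1. In EMX1-X1 the value was 0.40 (SE 0.40), with overlap. EGFR, another growth factor receptor, had 313, 355 and 375 counts in the vector control, 745, 808 and 547 with EMX1-FL and 548, 534 and 515 with EMX1-X1. It rose in EMX1-FL by 1.06 (SE 0.18, adjusted p = 0.0627 from edgeR), and in EMX1-X1 the value was 0.57 (SE 0.18), under the fold threshold. The ligand TGFB2 (0.13 in EMX1-FL, 0.21 in EMX1-X1) and CTNNB1 (-0.04 and -0.11), the beta-catenin gene, were abundant and did not pass.

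Among 14 tested EMT-inducing factors outside the members, TBXT and ETS1 rose in both overexpression groups, and none fell past the threshold. That is 2 of 14 in each comparison with the vector control, where 2.42% and 2.5% of all genes passed. TBXT (brachyury, a mesoderm factor) had log2 fold changes of 1.25 (SE 0.30) in EMX1-FL and 1.15 (SE 0.30) in EMX1-X1, with adjusted p-values of 0.216 and 0.424 from edgeR. ETS1, which also stands in the neural crest list, had 1.14 (SE 0.29) and 1.07 (SE 0.29), with adjusted p-values of 0.269 and 0.457 from edgeR. It was the only one of the 9 tested neural crest specifiers to pass, while the most abundant of these, ZIC1, DLX5 and MSX2, were at -0.40, 0.06 and -0.25 in EMX1-FL and -0.16, 0.27 and 0.25 in EMX1-X1. The most abundant of the inducing factors, RUNX2 (643 CPM in the vector control, 556 in EMX1-FL, 544 in EMX1-X1) and SOX4 (350, 452 and 438 CPM), did not pass, nor did LEF1 (248, 217 and 215 CPM).

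Genes that mesenchymal cells express covered a wide range, and 12 of the 22 listed had a mean under 3 CPM in the vector control. The most abundant, VIM, the intermediate filament vimentin, had 1257 ± 274 CPM (SD, n = 3) in the vector control, 1326 ± 197 in EMX1-FL and 1075 ± 58.7 in EMX1-X1, with overlap between the vector control and each. Of 18 tested mesenchymal genes, TNC (tenascin C) and MMP2, a matrix protease, rose in EMX1-FL by 1.37 (SE 0.34) and 1.44 (SE 0.27) and in EMX1-X1 by 1.57 (SE 0.34) and 1.51 (SE 0.27) on the log2 scale. Their adjusted p-values from edgeR were 0.252 and 0.0733 in EMX1-FL and 0.310 and 0.185 in EMX1-X1. Both were low in the vector control, with 28, 35 and 21 counts for TNC and 37, 51 and 76 for MMP2. FN1 (fibronectin) was above the vector control in every library of both groups, at 0.60 (SE 0.14) and 0.55 (SE 0.14), under the fold threshold. COL3A1, a collagen and the next in level after VIM, had lower means in both, with overlap. It had 689 ± 84.1 CPM (SD, n = 3) in the vector control, 564 ± 55.8 in EMX1-FL and 606 ± 55.0 in EMX1-X1. The log2 fold changes of COL3A1 were -0.29 (SE 0.15) and -0.18 (SE 0.15).

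ITGB3 (integrin beta 3) fell in EMX1-X1, with a log2 fold change of -1.12 (SE 0.48, adjusted p = 0.596 from edgeR), and was 1.37 (SE 0.48) higher in EMX1-FL than in EMX1-X1. Its counts were low, 23, 20 and 57 in the vector control and 17, 13 and 17 with EMX1-X1. AC068234.1 shares 35.9% of its exon bases. ACTA2, smooth muscle actin, was lower in EMX1-FL than in EMX1-X1, at -1.13 (SE 0.27). It had 459, 272 and 297 counts with EMX1-FL and 563, 823 and 1034 with EMX1-X1. EMX1-FL 2 and 3 lie on side 1 of the first component and EMX1-X1 2 and 3 on side 2. ACTA2-AS1, AL157394.3 and FAS share 30.8% of the ACTA2 exon bases. Between the overexpression groups, no gene of the list had an adjusted p under 0.611 from edgeR. Against the vector control, 2 of the 18 rose and none fell in EMX1-FL, and 2 rose and 1 fell in EMX1-X1. Over all genes tested, 2.42% and 2.5% passed in these comparisons. The medians of the list were 0.27 and 0.47, beside 0.045 and 0.0098 over all genes.

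Of 20 epithelial genes that SNAIL and ZEB factors are known to repress, 13 had a mean under 3 CPM in the vector control, and others were well covered. The most abundant were PATJ, a polarity protein, whose vector control level was 101 ± 7.64 CPM (SD, n = 3), DSP, the desmosome protein desmoplakin, with 39.0 ± 4.74, and OCLN, the tight junction protein occludin, with 37.3 ± 6.56. Their log2 fold changes were -0.03 (SE 0.17), 0.55 (SE 0.19) and 0.0033 (SE 0.22) in EMX1-FL and -0.17 (SE 0.17), 0.48 (SE 0.19) and -0.17 (SE 0.22) in EMX1-X1. DSP was above the vector control in every library of both overexpression groups, under the fold threshold. CDH1 had 62, 42 and 41 counts in the vector control, 48, 50 and 75 with EMX1-FL and 63, 92 and 97 with EMX1-X1, and the groups overlapped. Its log2 fold change was 0.32 (SE 0.32) in EMX1-FL and 0.75 (SE 0.31) in EMX1-X1, with edgeR's adjusted p-values of 0.997 and 0.584. Of the 20, 11 could be tested and none passed in any comparison, where 2.42%, 2.5% and 1.42% of all genes did. The medians were 0.0033 in EMX1-FL and 0.27 in EMX1-X1, beside 0.045 and 0.0098 over all genes.

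Of the EMT-opposing factors 5 of 16 could be tested. KLF4 rose in EMX1-X1 by 1.59 (SE 0.60, adjusted p = 0.568 from edgeR) from 2 to 6 counts a library in the vector control to 11 to 14. In EMX1-FL it had 5 to 12 counts and was at 1.22 (SE 0.62), which did not pass. KLF4 was thus 1 of the 5 in EMX1-X1, where 2.5% of all genes passed. None of the 8 tested partners and inhibitors of TWIST passed in any comparison, nor did any of the 18 co-repressors or the 16 enzymes of SNAIL protein stability, where 2.42%, 2.5% and 1.42% of all genes did. ID2, an inhibitor that binds the E-protein partners of TWIST, had 1833, 1494 and 1503 counts in the vector control, 719, 1079 and 910 with EMX1-FL and 1180, 1054 and 1159 with EMX1-X1. Both overexpression groups lay below the vector control with no overlap, at -0.78 (SE 0.19, adjusted p = 0.216 from edgeR) and -0.56 (SE 0.19, adjusted p = 0.536), under the fold threshold. TCF12, TCF3 and TCF4, the E-proteins that pair with TWIST factors, were at 0.04, -0.02 and 0.09 in EMX1-FL and -0.20, 0.44 and -0.21 in EMX1-X1. EZH2, the histone methyltransferase of the polycomb complex, was at 0.10 and -0.12, and MDM2, a ubiquitin ligase, at 0.04 and -0.38. Of 7 other repressed targets of the SNAIL factors, BBC3, the p53-induced apoptosis gene PUMA, rose in EMX1-X1 by 1.01 (SE 0.45, adjusted p = 0.604 from edgeR), with overlapping groups. In EMX1-FL BBC3 was at 0.63 (SE 0.45), also with overlap. It was 1 of the 7 in EMX1-X1, where 2.5% of all genes passed. The hepatocyte marker ALB (albumin) passed in both overexpression groups, at 1.46 (SE 0.45) and 1.11 (SE 0.45), with adjusted p-values of 0.467 and 0.576 from edgeR. It had 10 to 18 counts a library in the vector control, 22 to 53 in EMX1-FL and 20 to 38 in EMX1-X1.

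**Figure D4:**
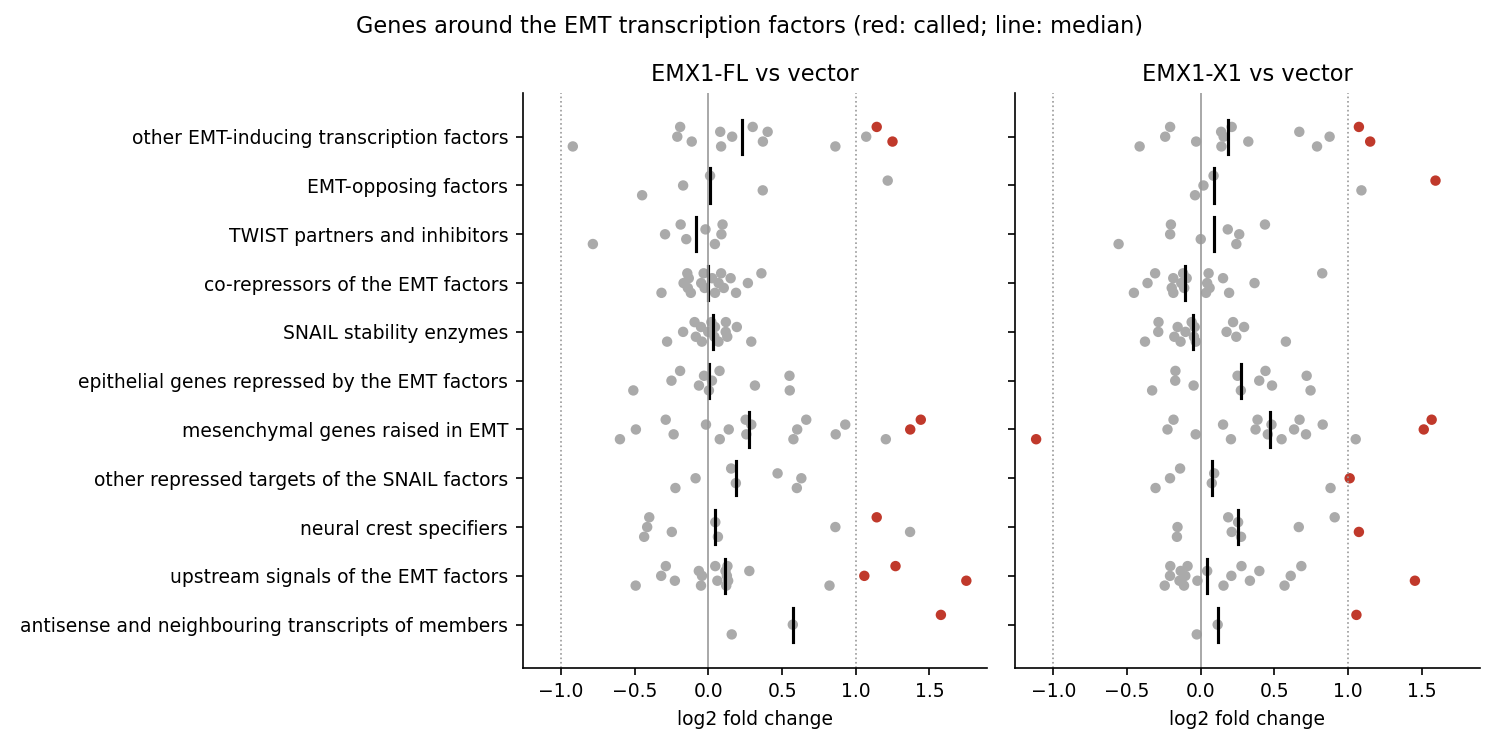
Log2 fold change of each tested gene in the 11 lists around the EMT transcription factors, against the vector control, for EMX1-FL and EMX1-X1. Red points passed the threshold (8 genes on the left and 9 on the right, ETS1 drawn in both of its lists), grey points did not, black lines are list medians and dotted lines mark a log2 fold change of 1 in each direction.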

How the data were processed

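RNA-seq of 9 SNU-398 libraries (3 per group, grouped by the sample labels) was analysed. The authors deposited a table of raw counts (read pairs on each gene name), made by its header with featureCounts 2.0.1 on exons of Ensembl release 99 (GRCh38) without a strand setting, while the submitters' processing notes list featureCounts 2.0.6 and STAR and the paper names RSEM. Deposited log2(TPM + 1) values, a log2 scale, were recomputed from counts and gene lengths to within 4.98e-06.

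Counts were fitted in R 4.3.3 with edgeR 4.0.16 (filterByExpr, TMM, quasi-likelihood F test, group as the only term), with Benjamini-Hochberg adjustment over 18574 genes. Calls used the study's threshold, p under 0.05 before adjustment together with a log2 fold change of 1 or more in either direction. CPM use TMM library sizes. The pipeline was tested on simulated data. GC content came from GENCODE release 29 and upstream sequences from RefSeq. Alternatives used RLE factors, library size alone, limma 3.58.1 (log2 TPM with a pseudocount of 1 or 0.1), other filters, DESeq2 1.42.0, 6 libraries, a replicate block, the side of the first component and each library left out.

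The members and lists were chosen with earlier results of these data known. All 8 members were named, and from each list the genes past the threshold and up to 3 of the highest CPM. CDH1, ID2, CD68, CDH5 and the other genes at 0 were named outside that rule after their values were seen. Likeness was the Pearson correlation of log2 CPM.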

Additional observations from a re-analysis of the deposited data

How the results depend on the processing

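Depth limits the low members most: ZEB1 had 13 to 70 counts a library and SNAI1 18 to 76, and 3 libraries a group cannot reach an exact permutation p under 0.1. SNAI2 kept its direction in every alternative run, with log2 fold changes of 1.84 to 2.13 in EMX1-FL and 1.11 to 1.38 in EMX1-X1 against the vector control and 0.67 to 0.91 between them. These runs used the libraries from which SNAI2 was chosen for its rise, so they are description and no separate support. The count of 1 of 7 members in EMX1-FL became 0 with limma on log2(TPM + 1) or log2(TPM + 0.1), with only the 6 libraries compared, with the replicate block and at an adjusted p under 0.05, and was 0 to 1 when each library was left out. The log2 fold change behind that call, 1.22 for ZEB1, was 0.45 and 0.99 in the limma fits, 1.20 with 6 libraries and 0.91 to 1.70 with a library left out, and it missed the threshold in 10 of 19 alternatives. It stayed at 0 in EMX1-X1, and between the overexpression groups it was 0 to 1 with a library left out (1 without EMX1-FL 1, where ZEB1 was at 1.14, or without EMX1-FL 3, where SNAI1 was at -1.13). Same-numbered libraries did not deviate together (mean correlation of residuals -0.13, against 0.060 for different numbers), so the numbers were not taken as pairs; under the replicate block ZEB1 in EMX1-FL was at 1.14. Listed genes called in EMX1-FL were 4 with limma on log2(TPM + 1), 1 at an adjusted p under 0.05 and 7 to 11 with a library left out. In EMX1-X1 they were 3, 0 and 4 to 9 (4 without EMX1-X1 2, 5 without vector control 2). Between the overexpression groups they were 1 with limma on log2(TPM + 1), 4 with no filter, 1 with the side of the first component as a covariate, 0 at an adjusted p under 0.05 and 0 to 12 with a library left out (12 without EMX1-FL 1, 0 without EMX1-FL 2, 6 without EMX1-X1 1, 1 without EMX1-X1 3). Values near 0 changed sign. SNAI1 in EMX1-FL was at 0.029 and 0.030 with limma on log2(TPM + 1) and log2(TPM + 0.1) and at -0.33 to 0.24 with a library left out. TWIST1 in EMX1-FL was at -0.014 with RLE factors and with DESeq2, at -0.0088 and -0.0091 under limma on log2(TPM + 1) and log2(TPM + 0.1), -0.0070 with no filter, -0.0043 with at least 10 counts in every library, -0.0090 with 6 libraries, -0.021 with the block, -0.12 with the side as a covariate and -0.50 to 0.20 with a library left out. With the side as a covariate SNAI3 in EMX1-X1 was at -0.21 (-0.13 to 0.33 with a library left out) and PRRX1 between the overexpression groups at -0.040 (-0.27 to 0.28). With a library left out PRRX1 was at -0.26 to 0.30 in EMX1-FL and -0.17 to 0.13 in EMX1-X1. The causes were not tested.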
